A study of Oryza sativa with 4 samples.

Results

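SAPK1 to SAPK10 are the rice members of the SnRK2 family, plant serine/threonine kinases that act in the response to osmotic stress and to the hormone abscisic acid (ABA). The members were taken by their locus identifiers in the RAP annotation, and all 10 were found among 37869 loci (15 of 44553 transcripts). Their transcripts were measured by RNA-seq in leaves of 5-week-old rice plants (Oryza sativa, labelled Illmi, the cultivar Ilmi of the study's methods) in 4 libraries, a well-watered control and plants deprived of water over 1, 2 or 3 d. Every library pooled leaves of several plants, no transgene or mutation was involved, and there was 1 library per condition. With no replicates there was no test across samples, and the 95% intervals given with the ratios (Clopper-Pearson) cover counting error only. The drought leaves were also taken on other days than the control, so the effect of water deficit and that of the sampling day cannot be told apart.

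In ABA signalling, the receptors bind the hormone and then inhibit protein phosphatases of the 2C type (PP2C), which otherwise keep the SnRK2 kinases dephosphorylated and inactive. The released kinases phosphorylate bZIP transcription factors that bind ABA-responsive promoter elements, and anion channels that close stomata. In rice the SAPK proteins are activated by hyperosmotic stress, and those of subclass III (SAPK8, SAPK9 and SAPK10) also by ABA. Subclass I holds SAPK4, SAPK5, SAPK6 and SAPK7, and subclass II holds SAPK1, SAPK2 and SAPK3. Activation is by phosphorylation, so the transcript levels given here are not kinase activities.

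The libraries held 56727328 reads mapped to genes in the control, 52626188 at 1 d, 60322263 at 2 d and 56909968 at 3 d. Levels are reads of a locus scaled to all mapped reads of its library, in the usual unit CPM, and a locus is the sum of its transcripts. Differences are log2 ratios of CPM, drought over control, and a locus was counted as past 2-fold where this ratio reached 1 or -1. Over all loci with reads in both libraries and at least 10 reads in all 4, the median log2 ratio was 0.03 at 1 d, -0.41 at 2 d and -0.86 at 3 d. In bulk leaf, fewer cells of a type and less RNA per cell cannot be told apart. The Rubisco small subunit locus Os12t0274700, a leaf marker, had 162294 reads in the control, 132764 at 1 d, 20311 at 2 d and 1557 at 3 d. The other leaf markers were also lower at 3 d, with 395 reads at 3 d against 48141 in the control for the second Rubisco small subunit Os12t0292400, and 4958 against 114263 for Rubisco activase Os11t0707000. The dehydrin Dip1 (Os02t0669100), a drought marker, had 2832, 4810, 255513 and 237663 reads in the same order. The root markers RCc3 (Os02t0662000) and Lsi2 (Os03t0107300) had 0 reads in all 4 libraries, whereas Lsi1 (Os02t0745100) had 154 to 770. The part of these large changes in leaf transcripts in the SAPK ratios was not tested. Values under TMM (edgeR) and DESeq2 scaling, which set the libraries level on the bulk of the loci instead of the total reads, are given where they change a direction or a call.

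The SAPK transcripts were on the whole more abundant in leaves without water for 2 d and 3 d than in the control. At 1 d all but SAPK2 were within 2-fold of the control. At 3 d, 6 of the 10 loci were past 2-fold higher and none past 2-fold lower, against 20.8% and 47.4% of all 30951 loci. SAPK1, SAPK2, SAPK4, SAPK6, SAPK9 and SAPK10 were the 6. At 3 d under TMM scaling, 8 SAPK loci were past 2-fold higher and none lower, against 30.7% and 34.6% of all loci, and under DESeq2 scaling 9 and none, against 33.0% and 32.3%. At 2 d, 5 loci were higher (SAPK1, SAPK3, SAPK4, SAPK6 and SAPK10) and none lower, against 19.8% and 35.0% of all loci. At 1 d no locus was past 2-fold higher and 1 was lower, SAPK2, against 5.71% and 4.53% of all loci.

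The median SAPK log2 ratio was 0.19 at 1 d, 0.91 at 2 d and 1.45 at 3 d. All 10 members lay above the median of all loci at 2 d and at 3 d, and 6 did at 1 d. Other loci annotated with protein serine/threonine kinase activity, 974 at 1 d and 948 at 3 d, had medians of -0.02 at 1 d, -0.41 at 2 d and -0.74 at 3 d. Among these other kinases 22.7% were past 2-fold higher at 3 d and 45.0% past 2-fold lower. The members themselves ranged from -0.47 to 4.21 at 3 d. Relative to the median of all loci, a measure that no scaling changes, they ranged from 0.38 (SAPK5) to 5.06 (SAPK1).

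**Figure D1:**
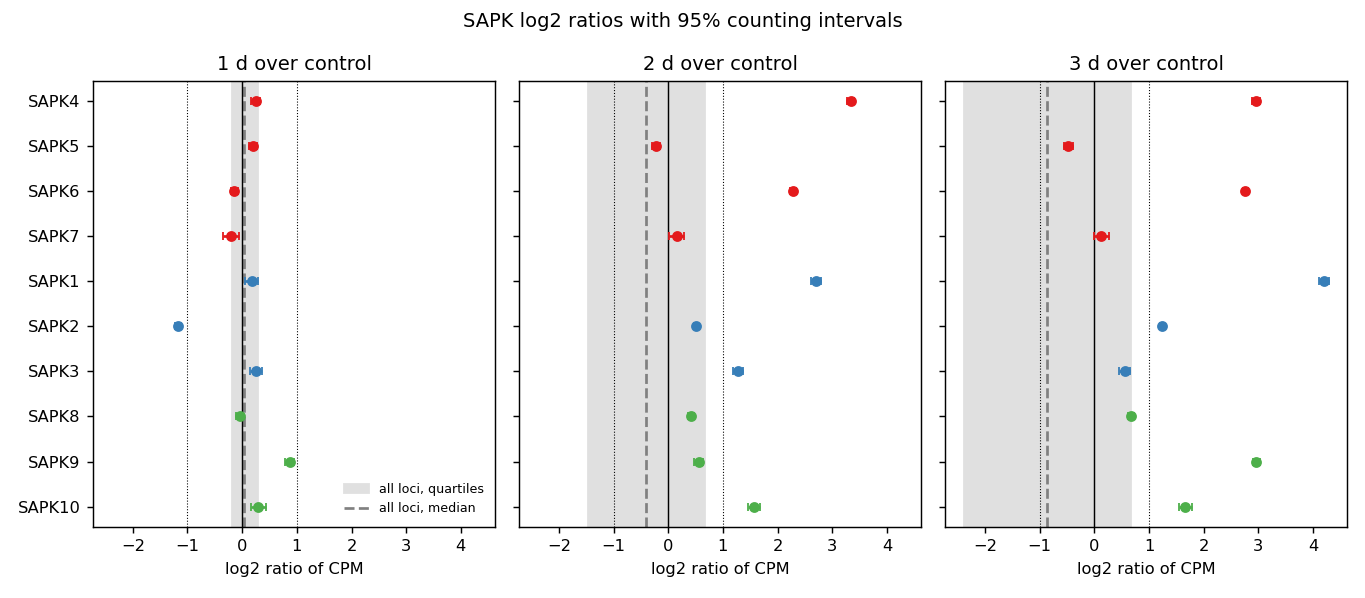
Log2 ratio of CPM (horizontal axis) of each SAPK locus at 1 d, 2 d and 3 d over control, with 95% counting intervals as bars. The grey band and the dashed line are the quartiles and the median of all loci, and the dotted lines mark 2-fold. At 3 d SAPK1 lies farthest to the right at 4.21 and SAPK5 farthest to the left at -0.47, a position that turns positive under TMM or DESeq2 scaling, and SAPK2 alone is past 2-fold lower at 1 d.

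Of subclass I, SAPK4 and SAPK6 were past 2-fold higher at 2 d and 3 d, and SAPK5 and SAPK7 stayed within 2-fold of the control on every day, apart from SAPK7 at 3 d under DESeq2 scaling (1.01). SAPK4 (Os01t0869900, chromosome 1), which has been linked to salt tolerance in rice, had 34.1 CPM in the control, 40.4 at 1 d, 345 at 2 d and 266 at 3 d. It was high in the last 2 libraries and low in the first 2. Its log2 ratio to the control was 0.24 (0.15 to 0.33) at 1 d, 3.34 (3.27 to 3.40) at 2 d, the highest of the family on that day, and 2.96 (2.89 to 3.03) at 3 d. The difference of 3 d over 2 d was -0.38 on the log2 scale. Under TMM and DESeq2 scaling SAPK4 was instead slightly higher at 3 d (3.70 and 3.84) than at 2 d (3.68 and 3.71). Whether SAPK4 shares reads with Os05t0433100, a locus annotated as similar to it, was not tested.

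SAPK6 (Os02t0551100, chromosome 2), reported to phosphorylate bZIP factors in rice, had 68.7 CPM in the control, 62.3 at 1 d, 334 at 2 d and 467 at 3 d. Its level was slightly below the control at 1 d and far above it later, with log2 ratios of -0.14 (-0.21 to -0.08), 2.28 (2.23 to 2.33) and 2.76 (2.71 to 2.81). SAPK4 and SAPK6 thus shared a step between 1 d and 2 d, of 3.09 for SAPK4 and 2.42 for SAPK6 on the log2 scale. They differed after it, since SAPK6 gained a further 0.48 by 3 d.

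SAPK5 (Os04t0691100, chromosome 4) had 53.2 CPM in the control, 61.1 at 1 d, 45.6 at 2 d and 38.3 at 3 d. It was the only member lower than the control at 2 d, at -0.22 (-0.30 to -0.15), and at 3 d, at -0.47 (-0.55 to -0.39), and both values turn positive under TMM (0.12 and 0.27) and under DESeq2 scaling (0.16 and 0.41). Compared with all loci SAPK5 stood near the middle, at the 56.9th percentile at 3 d.

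SAPK7 (Os04t0432000, chromosome 4) had 14.9 CPM in the control, 13.0 at 1 d, 16.6 at 2 d and 16.3 at 3 d. Its log2 ratio was -0.20 (-0.34 to -0.05) at 1 d, 0.16 (0.02 to 0.29) at 2 d and 0.13 (-0.01 to 0.27) at 3 d. At 3 d the interval included no change. With its most-read transcript alone the values at 2 d and 3 d were -0.03 and -0.02, so its direction on those days depended on how the transcripts were summed.

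**Figure D2:**
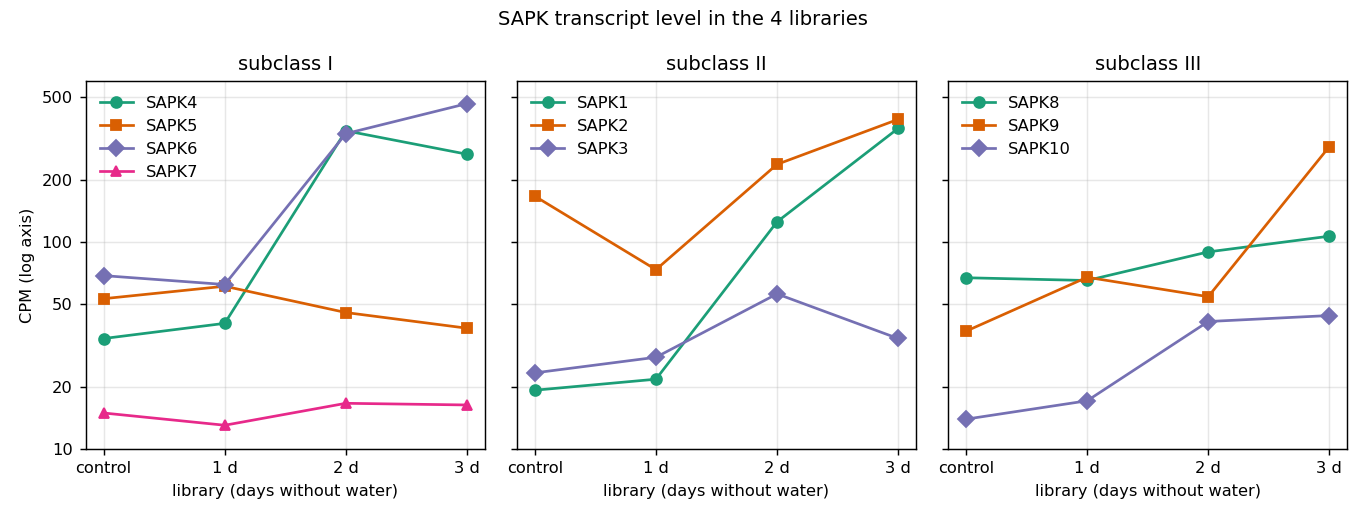
Level of each SAPK locus in CPM (vertical log axis) in the control, 1 d, 2 d and 3 d libraries, 1 point per library, in 3 panels by subclass. SAPK4, SAPK1 and SAPK6 step up most between 1 d and 2 d, and SAPK9 between 2 d and 3 d, where it reaches 289 CPM. SAPK2 dips to 73.5 CPM at 1 d before it reaches 392 CPM at 3 d.

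Subclass II held the member with the largest ratio at 3 d and the only member past 2-fold lower on any day. SAPK1 (Os03t0390200, chromosome 3), linked with SAPK2 to salt tolerance in rice, had 19.2 CPM in the control, 21.7 at 1 d, 125 at 2 d and 354 at 3 d. It was near the control level at 1 d (0.18, 0.06 to 0.30) and higher in each later library, at 2.70 (2.61 to 2.80) at 2 d and 4.21 (4.12 to 4.29) at 3 d. The last value was 18.4-fold and the 96.6th percentile of all loci.

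SAPK2 (Os07t0622000, chromosome 7), whose loss makes rice less sensitive to ABA and more sensitive to drought, had the highest CPM of the family in the control. It had 166 CPM in the control, 73.5 at 1 d, 237 at 2 d and 392 at 3 d. Its log2 ratio was -1.18 (-1.23 to -1.13) at 1 d, 0.51 (0.47 to 0.55) at 2 d and 1.23 (1.20 to 1.27) at 3 d. At 1 d it stood at the 3.56th percentile of all loci. Both SAPK2 steps after 1 d were upward, 1.69 between 1 d and 2 d and 0.72 between 2 d and 3 d.

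SAPK3 (Os10t0564500, chromosome 10) had 23.3 CPM in the control, 27.7 at 1 d, 56.1 at 2 d and 34.1 at 3 d. It was highest at 2 d and then lower. Its log2 ratio was 0.25 (0.14 to 0.36), 1.27 (1.18 to 1.36) and 0.55 (0.45 to 0.65) at 1 d, 2 d and 3 d, with a difference of -0.72 for 3 d over 2 d. Under TMM and DESeq2 scaling SAPK3 was past 2-fold at 3 d as well (1.29 and 1.43).

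Of subclass III, whose Arabidopsis counterparts are the main ABA-activated kinases, SAPK9 and SAPK10 were past 2-fold higher at 3 d and SAPK8 was not. SAPK8 (Os03t0764800, chromosome 3), which can phosphorylate the bZIP factor TRAB1, had 67.1 CPM in the control, 65.1 at 1 d, 89.5 at 2 d and 107 at 3 d. Its log2 ratio was -0.04 (-0.11 to 0.02), 0.42 (0.36 to 0.48) and 0.67 (0.61 to 0.73) on the 3 days. The interval at 1 d included no change, and under TMM and DESeq2 scaling the value at 3 d was past 2-fold (1.41 and 1.55).

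SAPK9 (Os12t0586100, chromosome 12), which has been linked to drought tolerance in rice, had 37.0 CPM in the control, 67.5 at 1 d, 54.4 at 2 d and 289 at 3 d. It was the member highest relative to the control at 1 d, at 0.87 (0.79 to 0.94), and was at 0.55 (0.47 to 0.63) at 2 d. At 3 d it was at 2.96 (2.90 to 3.03). Its step between 2 d and 3 d was 2.41 on the log2 scale, the 97.7th percentile of all loci, and the largest of the family for that step. Under TMM and DESeq2 scaling SAPK9 was slightly higher at 2 d (0.90 and 0.93) than at 1 d (0.86 and 0.86), not lower.

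SAPK10 (Os03t0610900, chromosome 3), which can also phosphorylate TRAB1, had 13.9 CPM in the control, 17.1 at 1 d, 41.2 at 2 d and 44.1 at 3 d. It was slightly higher at 1 d (0.29, 0.16 to 0.43) and past 2-fold at 2 d (1.57, 1.45 to 1.69) and 3 d (1.66, 1.55 to 1.78). The step between 2 d and 3 d was 0.10.

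Summed by subclass, the reads at 3 d were higher in all 3 subclasses, at log2 ratios of 2.20 in subclass I, 1.90 in subclass II and 1.90 in subclass III. At 2 d the subclasses differed more, at 2.12 in subclass I, 1.00 in subclass II and 0.65 in subclass III. At 1 d subclass II was at -0.77, with SAPK2 its only member below the control, subclass I at 0.05 and subclass III at 0.34. The 0.05 of subclass I turns to -0.060 with no scaling.

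The genes differ in length, so levels between them are given as CPM per kb of the deposited gene sequence, introns included. Reads of spliced RNA come from exons, so this division sets intron-rich loci lower, and the order between genes depends on it. In plain CPM, SAPK6 (68.7) stood above SAPK5 (53.2) in the control. The intervals are exact Poisson intervals of the summed reads of a locus, scaled to its level. For a locus with transcripts of unlike length, such as SAPK4, they do not cover the full counting error. In the control SAPK2 had the highest level at 39.9 CPM per kb, followed by SAPK5 at 28.4, SAPK8 at 20.8 and SAPK4 at 16.9. SAPK7 was lowest at 2.76. SAPK6 at 13.8 (13.4 to 14.2) and SAPK9 at 13.2 overlapped, the only neighbours in the order that did in the control. The places behind SAPK2 and SAPK5 depended on how transcripts were counted. With the most-read transcript of each locus, SAPK6 (10.4% of the summed level) and SAPK9 (9.94%) stood above SAPK4 (8.43%) and SAPK8 (8.09%).

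The order changed with the days without water. At 1 d SAPK5 led at 32.6 CPM per kb, with SAPK9 next at 24.1. At 2 d and 3 d SAPK4 led, at 158 and 134. At 3 d SAPK9 at 103, SAPK2 at 93.8, SAPK6 at 93.6 and SAPK1 at 84.8 followed, and SAPK2 and SAPK6 overlapped in their intervals. The first place of SAPK4 at 3 d depended on its short second transcript. With the most-read transcript of each locus, SAPK4 (17.9% of the summed level) stood below SAPK9 (21.2%), SAPK2 (19.3%) and SAPK6 (19.2%) at 3 d. SAPK7 was the lowest member in every library, at 2.41 to 3.08 CPM per kb. Without division by length SAPK10 was lower in the control, at 13.9 CPM against 14.9 for SAPK7.

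The summed level of the 10 loci was 155 CPM per kb in the control, 153 at 1 d, 425 at 2 d and 597 at 3 d, which is 2.75 times the control at 2 d and 3.86 times at 3 d. The summed level per kb at 1 d was close to the control level, with SAPK2 lower and SAPK9, SAPK5 and SAPK4 higher. Without division by length the sums were 0.90, 2.70 and 4.03 times the control at 1 d, 2 d and 3 d. SAPK2 made up 25.8% of the sum in the control, SAPK5 21.3% at 1 d, and SAPK4 37.3% at 2 d and 22.5% at 3 d. The first place at 1 d and at 3 d depended on the measure. Without division by length, SAPK2 led at 1 d (16.4%, against 13.6% for SAPK5) and SAPK6 at 3 d (23.3%). SAPK9 led at 3 d when the most-read transcript stood for each locus (21.2%).

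**Figure D3:**
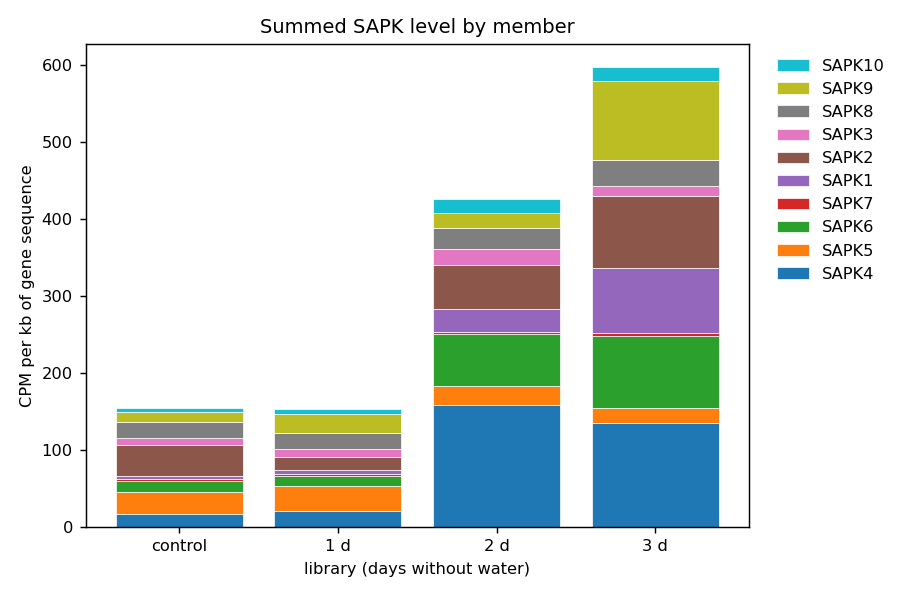
Summed SAPK level in CPM per kb of gene sequence (vertical axis, from 0) in the 4 libraries, each bar divided by member. The bars stand at 155, 153, 425 and 597 for control, 1 d, 2 d and 3 d, and the SAPK4 section is the tallest at 2 d.

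Of the 10 loci, 5 had 1 annotated transcript and 5 had 2 (SAPK1, SAPK3, SAPK4, SAPK7 and SAPK8). The -01 transcript of SAPK7 took 58.9% (55.5 to 62.3) of the reads of its locus in the control, 54.2% at 1 d, 51.8% at 2 d and 53.2% at 3 d. That of SAPK1 stayed at 51.1% to 53.7%, and that of SAPK8 at 52.5% to 54.6%. The -01 transcript of SAPK3 took 71.8%, 72.8%, 68.4% and 72.1%. Transcripts of a locus overlap, and how the authors divided shared reads between them is not given in the sources used here. The second SAPK4 transcript is only 271 bases long, with 3.46% to 5.22% of the reads of its locus, which raises the SAPK4 level per kb.

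Few loci shared the profile of SAPK9 over the 3 ratios. Compared were 21801 loci with a mean of at least 100 reads and reads in every library. Of these, 1 lay within a Euclidean distance of 0.5 of SAPK9, 21 of SAPK2, 48 of SAPK1 and 71 of SAPK4. Around SAPK5 there were 1431 (6.56%), around SAPK7 1269 and around SAPK8 1056. Within the family the closest profiles were those of SAPK7 and SAPK8 (0.62), and of SAPK5 and SAPK7 (0.81). The nearest loci were sought only among the 14131 of the 21801 whose description names a protein. Descriptions such as hypothetical, unknown or non-protein coding were left out. Among the 14131, those nearest to SAPK1 were the serine carboxypeptidase III Os02t0114200 (distance 0.05), the receptor-like kinase MARK-like Os03t0712400 (0.19) and the beta-propeller protein Os07t0638100 (0.20). Nearest to SAPK5 were Os04t0454600, described only by similarity to another protein (0.06), the BTB/POZ protein Os07t0668800 (0.08) and the adaptin ear-binding coat-associated protein 1-like Os01t0614700 (0.10).

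The listed PP2C and bZIP partners of the kinases had higher median ratios than the SAPK loci at 2 d and 3 d. Of the 10 PP2C loci, which encode the phosphatases that hold SnRK2 kinases inactive, 1 was past 2-fold higher at 1 d, 10 at 2 d and 9 at 3 d, against 5.71%, 19.8% and 20.8% of all loci. None was past 2-fold lower, against 4.53%, 35.0% and 47.4% of all loci. Their median log2 ratio was 0.18 at 1 d, 3.27 at 2 d and 3.41 at 3 d, where the SAPK medians were 0.19, 0.91 and 1.45. Os05t0572700 had the largest ratio at 3 d, 8.22 (7.56 to 8.98), with 18 reads in the control, 49 at 1 d, 3425 at 2 d and 5403 at 3 d. Os09t0325700 followed at 5.21, with 600, 530, 13393 and 22319 reads. The lowest were Os05t0592800 at 0.80, which passes 2-fold under TMM and DESeq2 scaling (1.54 and 1.68), with 2251, 2179, 6087 and 3930 reads, and Os01t0846300 at 2.03, with 3214, 4886, 29648 and 13177 reads. Every listed phosphatase thus had more CPM at 3 d than in the control.

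Of the 6 bZIP loci, factors that the kinases phosphorylate, 5 had reads in every library. None of these 5 was past 2-fold at 1 d, where 5.71% of all loci were past 2-fold higher and 4.53% lower. All 5 were past 2-fold higher at 2 d and 4 at 3 d, against 19.8% and 20.8% of all loci. None was past 2-fold lower at 2 d or 3 d, against 35.0% and 47.4% of all loci. The medians of the 5 were 0.07, 3.00 and 2.89 on the 3 days. The highest at 3 d were Os01t0867300, annotated as OSE2-like, at 3.76, and the AREB2-like Os02t0766700 at 3.52. The lowest were the ABI5-like Os09t0456200 at 0.95, past 2-fold under TMM and DESeq2 scaling (1.69 and 1.83), and the TRAB1-like Os08t0472000 at 1.73. Os01t0859300, an ABA response element binding factor, had 0 reads in the control, 2 at 1 d, 234 at 2 d and 656 at 3 d. With a floor of 3 reads put in the control, it was 218-fold higher at 3 d, which is not a lower bound. The lower end of the counting interval of its log2 ratio at 3 d was 7.47.

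The anion channel family locus Os04t0574700, annotated as a C4-dicarboxylate and malate transporter, went the other way. It had 1168 reads in the control, 1122 at 1 d, 819 at 2 d and 257 at 3 d, a log2 ratio of -2.19 at 3 d. A place past 2-fold lower at 3 d was common, held by 47.4% of all loci. Under TMM and DESeq2 scaling this channel locus was at -1.45 and -1.31 at 3 d. The 3 SnRK1 alpha loci, relatives of the SnRK2 kinases that act in sugar and energy signalling, stayed within 2-fold of the control on all 3 days at this scaling, with medians of -0.00, 0.75 and 0.38. The medians of all loci were 0.03, -0.41 and -0.86. Of all loci, 5.71%, 19.8% and 20.8% were past 2-fold higher on the 3 days, and 4.53%, 35.0% and 47.4% past 2-fold lower. At 3 d Os08t0484600 was at 0.43, Os05t0530500 at 0.38 and Os03t0289100 at -0.23. Under TMM and DESeq2 scaling, an alternative chosen after seeing the data, Os08t0484600 (1.17 and 1.31) and Os05t0530500 (1.13 and 1.26) were past 2-fold at 3 d, and at 2 d as well, and Os03t0289100 turned positive at 3 d (0.51 and 0.65). The 7 listed receptor loci are not reported, since the descriptions in the table do not name them as ABA receptors.

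**Figure D4:**
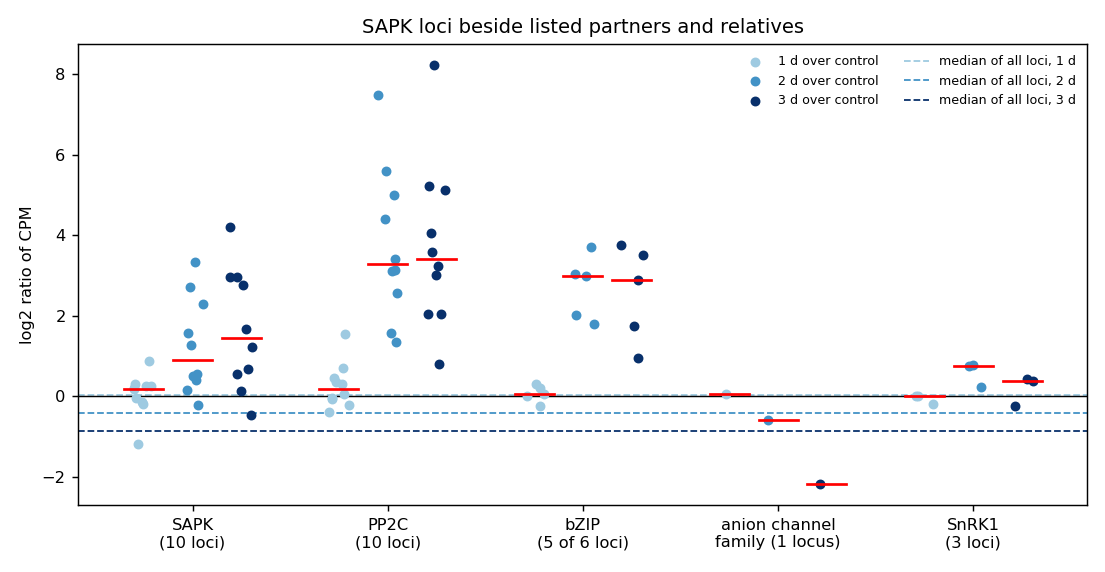
Log2 ratio of CPM (vertical axis) of the SAPK loci and of listed partners and relatives at 1 d, 2 d and 3 d over control, 1 point per locus, with red bars at the median of each list and dashed lines at the median of all loci. The PP2C and bZIP points lie mostly above the SAPK points at 2 d and 3 d, the SnRK1 points between -0.23 and 0.77 on all days, which TMM or DESeq2 scaling moves upward at 2 d and 3 d, and the anion channel point at -2.19 at 3 d.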

How the data were processed

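Leaf RNA was sequenced as single-end libraries, which the methods of the study describe as strand-specific. Per the methods of the study, reads were trimmed for adaptors and quality, freed of duplicates with FastUniq and mapped by clc_ref_assemble against RAP gene sequences (IRGSP, version 1.0). The deposited table gives whole-number read counts per transcript, which the authors left unnormalized, and those counts were used here. The normalized values and log2 ratios of the authors in the same table are their own comparisons and were not used. Whether strand was used in counting is not given in the sources used here, so reads of overlapping or antisense genes may be mixed in the counts.

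Counts were summed over the transcripts of a locus and divided by the mapped reads of the library, 52626188 to 60322263. At this depth a count of 0 allows up to 3 reads. A ratio needed at least 10 reads over the 4 libraries and reads in both libraries compared. The intervals are exact 95% Clopper-Pearson intervals of the share of 2 counts, converted to ratios, and cover counting error only. Scaling factors came from edgeR 4.0.16 and DESeq2 1.42.0 in R 4.3.3. Intervals were computed with scipy 1.17.1, tables with pandas 2.3.3 and numpy 2.4.6, and plots with matplotlib 3.10.9, under Python 3.11.15. The counting and interval code was tested on simulated data.

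The members and lists were chosen with earlier results of these data known. All 10 SAPK loci are named, and from the partner lists the 2 highest and the 2 lowest at 3 d in each role, plus the 3 loci nearest in profile to the SAPK locus with the highest and with the lowest ratio at 3 d. The nearest loci were sought only among loci whose description names a protein. The alternatives were no scaling, TMM factors, DESeq2 size factors, 1 read added, the most-read transcript per locus, no minimum or 100 reads, and a counting interval past no change. Promoter motifs and protein features were not analysed here.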

Additional observations from a re-analysis of the deposited data

Results flagged for a closer look

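The log2 ratios of 4 SAPK loci to the control lay in opposite directions on different days with counting intervals that excluded no change on both sides. SAPK8 also changed sign, but its interval at 1 d (-0.11 to 0.02) included no change. The difference between days was not tested, since there was 1 library per day, and the intervals cover counting error only. SAPK2 was at -1.18 at 1 d, 0.51 at 2 d and 1.23 at 3 d. SAPK5 was at 0.20 at 1 d, -0.22 at 2 d and -0.47 at 3 d, and the last 2 values are positive under TMM and DESeq2 scaling. SAPK6 was at -0.14 at 1 d, 2.28 at 2 d and 2.76 at 3 d. SAPK7 was at -0.20 at 1 d and 0.16 at 2 d, and the value at 2 d turns negative with its most-read transcript.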

How the results depend on the processing

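No paired analysis was possible because there is 1 library per condition. Of the 30 SAPK log2 ratios, all kept their sign and their side of 2-fold with no scaling and with 1 read added. TMM factors kept 28 signs and 28 sides, DESeq2 factors 28 and 27, and the most-read transcript 28 and 30. TMM and DESeq2 scaling moved every locus by the same amount, and the median of all loci with it, by 0.35 and 0.38 at 2 d, and at 3 d by 0.74 (TMM) and 0.88 (DESeq2). Leaving out scaling moved the median by -0.11 at 1 d. With TMM, 8 SAPK loci were past 2-fold higher at 3 d (SAPK3 and SAPK8 added). With DESeq2, 9 were (SAPK7 added, at 1.01). The share of higher loci among all loci past 2-fold was 30.5% at 3 d and became 47.1% with TMM and 50.5% with DESeq2. At 2 d it was 36.2%, against 47.9% and 49.1%. Relative to the median of all loci, SAPK1 stood at 5.06 and SAPK5 at 0.38 at 3 d. The count of partner loci past 2-fold higher at 1 d was 2 with 1 read added, against 1. Without scaling, subclass I was at -0.060 at 1 d and 2.20 at 2 d, subclass II at -0.87 and 1.09, and subclass III at 0.23 and 0.74. With TMM the 3 subclasses were at 2.46, 1.35 and 0.99 at 2 d and at 2.94, 2.64 and 2.64 at 3 d. With DESeq2 they were at 2.49, 1.38 and 1.03 at 2 d and at 3.08, 2.78 and 2.78 at 3 d. With the most-read transcript, subclass II was at -0.88, 0.83 and 1.64 and subclass III at 0.45, 0.74 and 2.17 at 1 d, 2 d and 3 d. The share of higher loci at 1 d was 55.8%, and 46.4% without scaling. Replicate error could not be estimated.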

Other observations

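The values here were chosen after they were seen. Os05t0433100, a locus annotated as similar to SAPK4 and not among the 10, had 228 reads in the control, 191 at 1 d, 1691 at 2 d and 1575 at 3 d, log2 ratios of -0.15, 2.80 and 2.78. Whether it shares reads with SAPK4 was not tested. The noncoding locus Os03t0611100, listed next after SAPK10, had 118, 105, 356 and 255 reads in the same order, and its log2 ratio at 3 d was 1.11. Of the neighbours of SAPK1 and SAPK2 in the annotation, 1 on one side of each is annotated as ribosomal protein S6-like. Os03t0390000 (before SAPK1) was at -1.69 and Os07t0622100 (after SAPK2) at -1.15 on the log2 scale at 3 d. On the other side, the cytochrome c oxidase subunit 6b-like Os03t0390400 (after SAPK1) was at -0.36 and the alcohol dehydrogenase superfamily locus Os07t0621800 (before SAPK2) at -2.76.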
